A study of Mus musculus with 12 samples.

Results

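The genes described here are the UDP-glucuronosyltransferases and the cytosolic sulfotransferases of mouse liver. They were taken by symbol, as every gene whose name in the platform table begins with Ugt1, Ugt2 or Ugt3 and a family letter and number, or with Sult and a number, on probe sets that name exactly 1 gene. The rule found 29 genes of 30063, of which 10 were glucuronosyltransferases (7 Ugt2b genes, Ugt2a3, Ugt3a1 and Ugt3a2) and 19 were sulfotransferases. Ugt3a1 and Ugt3a2 are counted as glucuronosyltransferases by symbol only, since their human counterparts use sugar donors other than UDP-glucuronic acid. Of these, 26 passed the filter on low signals and were tested, while Sult1c1, Sult2b1 and Sult4a1 stayed below it. No gene of the Ugt1a family is among them, and it is not analysed here.

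Livers came from 12 mice (strain C57BL/6J -Oca2p-un/J, all 3 months old) in 3 groups of 4 with 2 females and 2 males each. Citrate-coated silver nanoparticles of 20 nm (cit-AgNP) were given by oral gavage to 1 group and polyvinylpyrrolidone-coated silver nanoparticles of the same size (PVP-AgNP) to another, at 4 mg of silver per kg on 7 consecutive days. Control mice received water in place of particles. Livers were taken 24 h after the last dose, and the total RNA of each mouse was hybridised to 1 whole-transcript array, so precision is limited by the small number of arrays.

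Glucuronosyltransferases sit in the membrane of the endoplasmic reticulum and join glucuronic acid from UDP-glucuronic acid to lipophilic molecules such as steroids, bile acids, bilirubin and drugs. Cytosolic sulfotransferases join a sulfonate group from the donor PAPS to phenols, steroids, amines and bile acids. Both reactions make their substrates more soluble in water and ready for export into bile or blood. Mouse liver is known for strong sex differences in these families, with several Sult2a and Sult3a genes higher in females and several Ugt2b genes higher in males.

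All values below are log2 signals or differences between log2 signals, and each set of per-array values gives the 2 females before the 2 males of a group. A gene is said to pass when limma's Benjamini-Hochberg adjusted p over the 19985 genes tested is under 0.05. The 12 genes tested of a list of known sex-dependent liver genes all passed between the sexes, in the labelled direction for the X-linked Xist and the Y-linked Eif2s3y. The hepatocyte markers lay at or near the upper limit of the scale on all arrays, with a mean of 19.85 to 19.93. At that limit they cannot show whether the share of hepatocytes differed between groups. The area under the receiver operating characteristic curve that separates exon from intron control probe sets, a measure of array quality, was 0.814 to 0.827 in cit-AgNP arrays, 0.778 to 0.821 in PVP-AgNP arrays and 0.804 to 0.842 in control arrays, and PVP-AgNP replicates 1 and 4 had the lowest areas. As a level for background, the 95th percentile of the intron control probe sets ran between 7.72 and 8.53 on the 12 arrays. All 10 glucuronosyltransferases, Sult1a1 and Sult1d1 lay above it on 12 of 12 arrays. Sult2a2 and Sult3a1 lay above it in 6 of 6 females and 0 of 6 males, Sult2a1 and Sult3a2 in 5 females, Sult2a5 in 3, Sult1b1 and Sult2a4 in 2 and Sult2a3 in 1. The other tested sulfotransferases lay below it on every array. Bulk liver RNA cannot tell fewer cells of a type apart from less RNA per cell.

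Neither coating changed any glucuronosyltransferase or sulfotransferase past the threshold. With cit-AgNP, 0 of 26 members passed against control, where 1 of 19985 genes did (0.005%). With PVP-AgNP, 0 of 26 passed against control, where 8 genes did (0.04%). Between PVP-AgNP and cit-AgNP, 0 of 26 passed, as did 0 of 19985 genes (0%). At an unadjusted p under 0.05, the members counted were 1 with cit-AgNP (6.57% of all genes), 1 with PVP-AgNP (20.3% of all genes) and 2 between the coatings (14% of all genes). Those members were Sult1b1, higher with cit-AgNP than in control, Ugt2a3, lower with PVP-AgNP than in control, and Sult1b1 and Ugt2b1, lower with PVP-AgNP than with cit-AgNP.

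The signs of the members leaned downward with PVP-AgNP. Of the 26 members, 22 had a difference below 0 in PVP-AgNP against control livers (50.5% of all genes), 15 in cit-AgNP against control livers (49.6% of all genes) and 23 in PVP-AgNP against cit-AgNP livers (50.2% of all genes). The median difference of the members was -0.22 with PVP-AgNP and -0.06 with cit-AgNP, both against control, and -0.21 between the coatings, beside medians over all genes tested of -0.0023, 0.00043 and -0.00055 in the same order. The 10 glucuronosyltransferases, Sult1a1 and Sult1d1 ranked at percentiles 91.9 to 99.3 of mean signal among genes, so all genes are not a background of like signal. PVP-AgNP replicates 1 and 4, with the lowest areas, had the highest array medians, 4.40 and 4.28. The part of array quality and signal level in these signs was not tested. The 3 comparisons share mice, so their signs are not independent of each other. The members are family relatives and their probe sets may bind transcripts of near-identical paralogs, so single members are not independent measurements either.

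**Figure D1:**
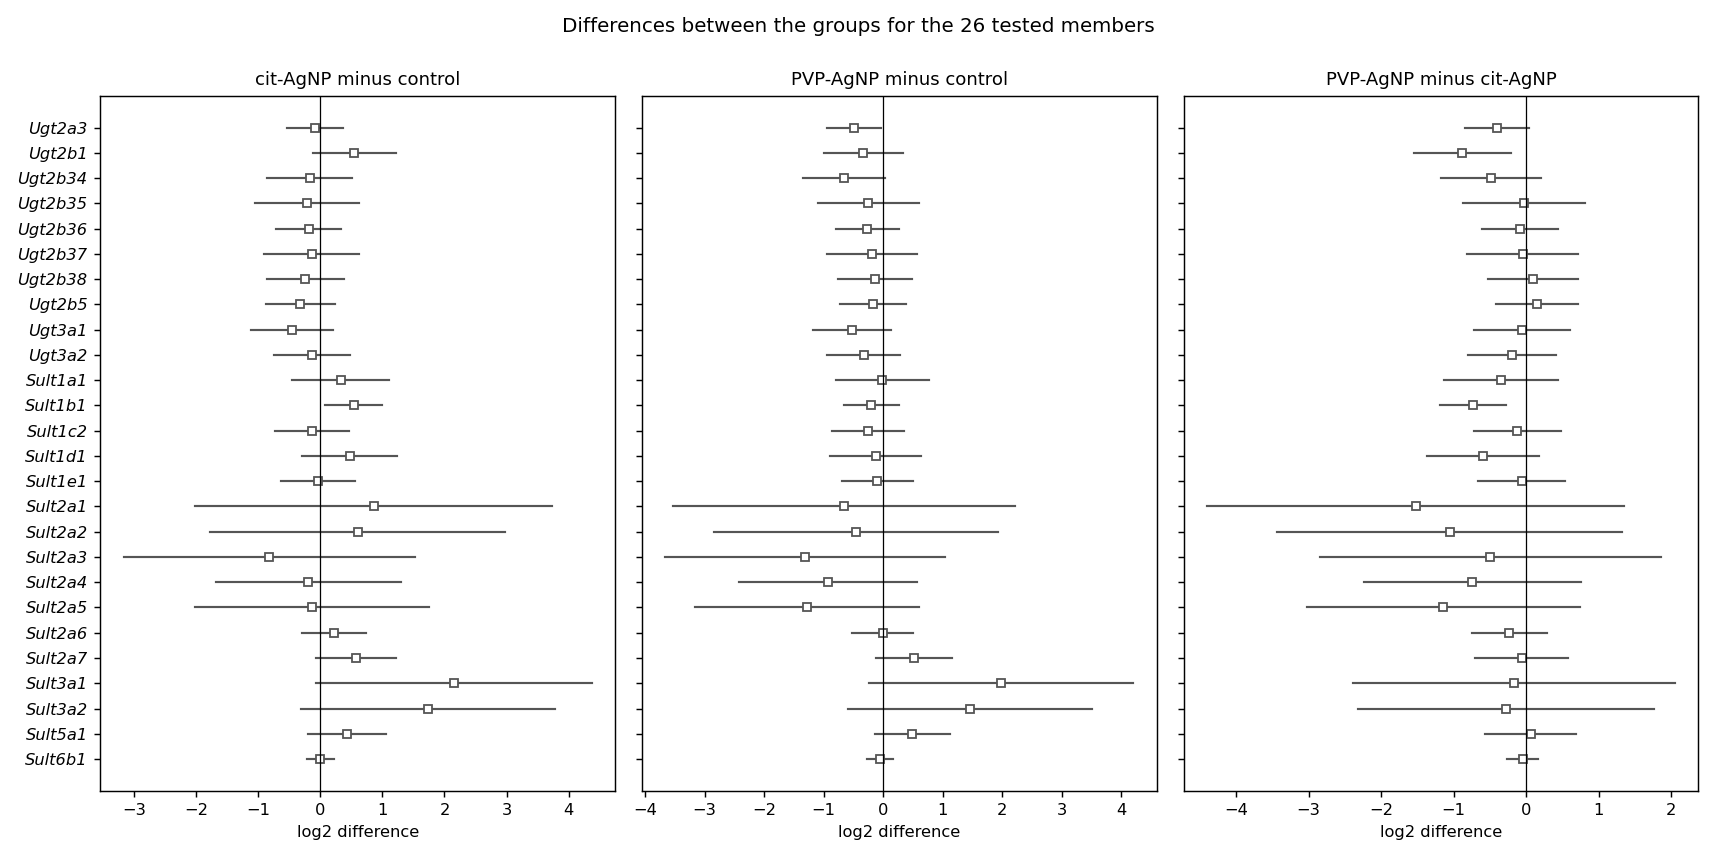
Log2 differences with 95% confidence intervals from the limma fit (horizontal axis) for the 26 tested members (rows) in cit-AgNP minus control, PVP-AgNP minus control and PVP-AgNP minus cit-AgNP livers. Open squares mark members that did not pass, which is all of them, and the widest intervals belong to Sult2a and Sult3a genes.

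All 10 glucuronosyltransferases lay lower in PVP-AgNP than in control livers, by differences of -0.66 to -0.14 with a median of -0.30, and none passed. With cit-AgNP the same genes had differences of -0.46 to 0.55 against control, with a median of -0.18. Ugt2a3, whose human counterpart conjugates bile acids, had signals of 15.72, 15.69, 16.59 and 15.80 in PVP-AgNP livers, against 16.30, 16.73, 16.44 and 16.29 in control livers. PVP-AgNP livers lay below all control livers except for 1 male, and the difference was -0.49 (SE 0.20, adjusted p 0.214). Against the cit-AgNP livers, at 16.55, 16.46, 16.20 and 16.21, the difference of Ugt2a3 was -0.41 with a 95% interval of -0.85 to 0.04 (SE 0.20, adjusted p 0.391).

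Ugt2b34 had signals of 15.33, 15.73, 16.53 and 15.49 in PVP-AgNP livers, against 15.89, 17.00, 16.55 and 16.29 in control livers. Again 1 PVP-AgNP male lay among the control livers and the other 3 below them, and the difference was -0.66 (SE 0.31, adjusted p 0.263). Both values shrank with array quality in the model, to -0.26 for Ugt2a3 and -0.12 for Ugt2b34, and to -0.30 for each without the 2 arrays of lowest area. Ugt2b1, one of the male-predominant members, had signals of 14.20, 14.74, 18.26 and 17.16 in PVP-AgNP livers, against 16.19, 15.73, 17.98 and 17.99 in cit-AgNP livers. Females were lower with PVP-AgNP than with cit-AgNP, while the males overlapped, and the difference was -0.88 with a 95% interval of -1.55 to -0.21 (SE 0.30, adjusted p 0.302).

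The lowest Ugt2 signals among females were those of the PVP-AgNP mice. In each of the 7 Ugt2b genes and in Ugt2a3 the PVP-AgNP females were the 2 lowest of the 6 females, and PVP-AgNP replicate 1 was the lowest in all 7 Ugt2b genes. Over all members this held for 10 of 26, and over all genes tested for 2721 of 19985 (13.6%), a pattern looked for after the values were seen. In females alone the PVP-AgNP minus control difference was -0.82 for Ugt2a3 (SE 0.24, adjusted p 0.29), -0.82 for Ugt2b1 (SE 0.35, adjusted p 0.378), -0.76 for Ugt2b38 (SE 0.29, adjusted p 0.348) and -0.68 for Ugt2b5 (SE 0.28, adjusted p 0.37). None of the 26 members passed in females alone, nor did any of all genes (0%), and 5 members had an unadjusted p under 0.05 (13% of all genes). PVP-AgNP replicate 1, the array of lowest area, carried the lowest Ugt2b signals, and the part of array quality in the pattern was not tested beyond the values above. The mean of the 6 Kupffer cell markers was 8.95, 10.50, 8.38 and 8.74 in PVP-AgNP livers, against 8.32, 9.18, 8.32 and 8.50 in control livers. In cit-AgNP livers it was 9.64, 9.27, 8.40 and 8.59. The mean of the 6 neutrophil markers, of which 4 passed the filter on low signals, was 6.02, 7.58, 6.05 and 5.75 in PVP-AgNP livers, against 5.87, 6.29, 4.28 and 5.52 in control livers. In cit-AgNP livers it was 6.29, 6.16, 5.68 and 6.15. PVP-AgNP replicate 2 was the highest array for both lists. In females the median PVP-AgNP minus control difference was 0.90 for the Kupffer cell markers and 0.91 for the neutrophil markers tested. It was -0.74 for periportal hepatocyte markers, -0.37 for stellate cell, -0.18 for sinusoidal endothelium, -0.09 for cholangiocyte and -0.08 for pericentral hepatocyte markers. The part of other cell types and of liver zones in the Ugt2 signals was not tested.

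**Figure D2:**
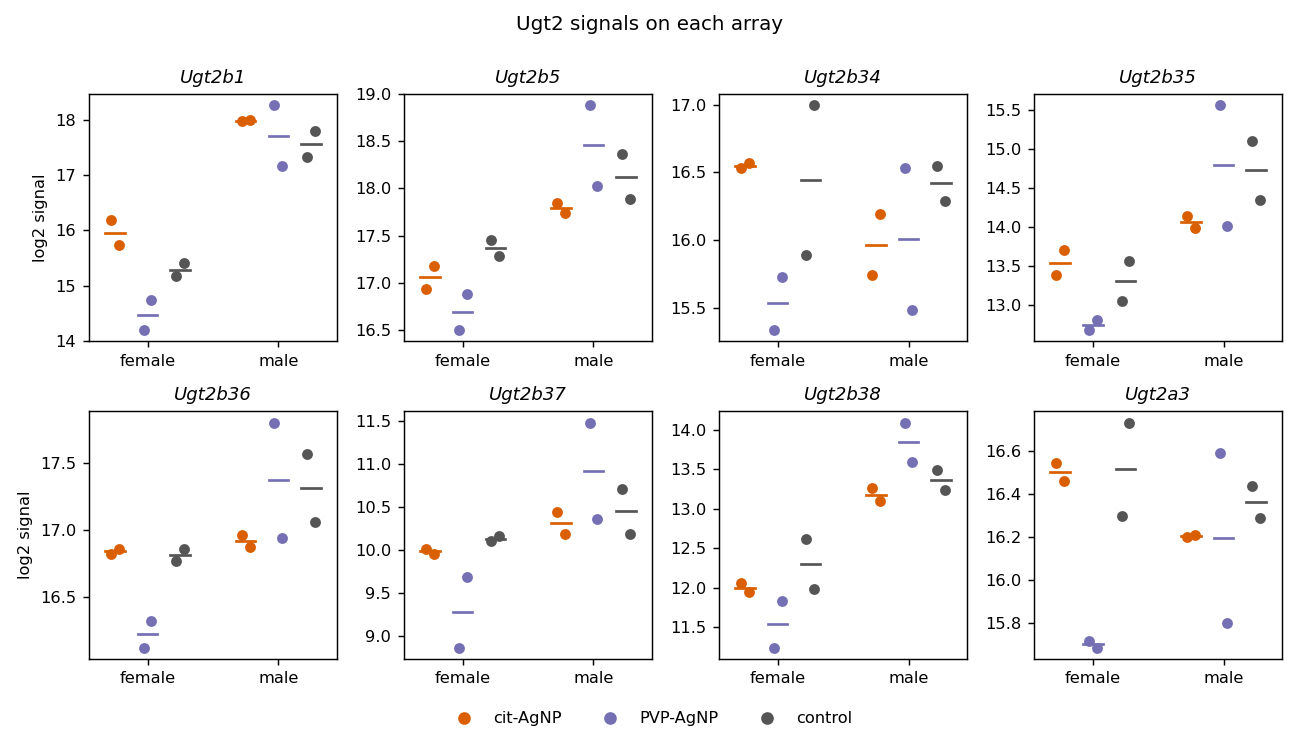
Log2 signals (vertical axis, on a scale of its own in each panel) of 8 Ugt2 genes on each of the 12 arrays, by sex and group, where each point is 1 mouse and each line the mean of 2 mice. The PVP-AgNP females lie below the other 4 females in all 8 panels, while 1 PVP-AgNP male is the highest male in 7 panels.

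In PVP-AgNP males 6 of 7 Ugt2b genes had a difference above 0 from control (49.4% of all genes), and in PVP-AgNP females all 7 had one below 0 (51.8% of all genes). Ugt2b38 had signals of 11.24 and 11.82 in PVP-AgNP females, against 12.61 and 11.98 in control females. The PVP-AgNP males stood at 14.09 and 13.59, against 13.49 and 13.24 in control males. Both sexes were thus separated from their controls in opposite directions, and the PVP-AgNP effect in females minus that in males was -1.24 (SE 0.40, adjusted p 1). For Ugt2b5, at 16.50, 16.88, 18.88 and 18.03 in PVP-AgNP livers and 17.45, 17.29, 18.36 and 17.89 in control livers, the same contrast was -1.01 (SE 0.39, adjusted p 1). For Ugt2b37, at 8.87, 9.69, 11.49 and 10.37 in PVP-AgNP livers and 10.10, 10.16, 10.71 and 10.19 in control livers, it was -1.33 (SE 0.56, adjusted p 1). Both genes were lower in each PVP-AgNP female than in each control female, while the males overlapped. No member passed for this contrast, nor did any gene (0%), and 4 members had an unadjusted p under 0.05 (3.62% of all genes), namely these 3 and Sult2a6. With 2 mice of each sex in a group these contrasts have wide errors.

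Ugt2b37, Ugt2b38 and Ugt2b5 are near relatives, and their promoter windows are described here. Their PVP-AgNP minus control differences had the same sign within each sex, and Ugt2b1, Ugt2b35 and Ugt2b36 had these signs as well. Of the 29 members, 24 matched a window in RefSeq (GRCm38.p6) that runs from 250 bases before a start listed for the gene to 50 after it. Such a start need not be the outermost one, and the windows of Sult3a1, Sult3a2 and Sult1a1 lie inside their genes. Aligned end to end, the windows of Ugt2b37 and Ugt2b38 were identical at 87.3% of aligned columns, those of Ugt2b5 and Ugt2b38 at 84.2% and those of Ugt2b5 and Ugt2b37 at 76.5%. The window of Ugt2b5 is chr5:87140291-87140590 and that of Ugt2b38 chr5:87424154-87424453, both on the minus strand of GRCm38.p6 and printed 5′ to 3′ in the direction of the gene. Capitals mark the longest run that both share, 62 bases that begin at position -68 from the start of Ugt2b5 and at position -71 from that of Ugt2b38.
Ugt2b5: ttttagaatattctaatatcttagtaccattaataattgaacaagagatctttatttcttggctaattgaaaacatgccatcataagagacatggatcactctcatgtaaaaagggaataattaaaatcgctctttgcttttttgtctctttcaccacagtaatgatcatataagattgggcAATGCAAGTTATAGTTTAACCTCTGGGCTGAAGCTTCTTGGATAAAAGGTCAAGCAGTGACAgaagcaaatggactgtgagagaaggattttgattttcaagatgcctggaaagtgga
Ugt2b38: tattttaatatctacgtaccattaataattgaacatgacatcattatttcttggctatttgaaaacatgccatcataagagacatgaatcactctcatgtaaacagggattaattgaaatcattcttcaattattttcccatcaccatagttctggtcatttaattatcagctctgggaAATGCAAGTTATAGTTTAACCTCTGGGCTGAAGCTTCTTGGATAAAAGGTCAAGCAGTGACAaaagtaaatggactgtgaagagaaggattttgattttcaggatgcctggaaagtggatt
In the RefSeq gene order, 11 members, all the Ugt2 members with Sult1b1, Sult1d1 and Sult1e1, stand within a block of 13 consecutive protein-coding genes on chromosome 5, whose other genes are Ugt2a1 and Ugt2a2.

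Ugt3a1 and Ugt3a2, whose human counterparts use sugar donors other than UDP-glucuronic acid, stand next to each other on chromosome 15. Ugt3a1 differed from control by -0.52 with PVP-AgNP (SE 0.30, adjusted p 0.335) and by -0.46 with cit-AgNP (SE 0.30, adjusted p 0.904). Ugt3a2 ranged from 14.61 to 15.71 in PVP-AgNP livers, from 14.70 to 15.93 in cit-AgNP livers and from 15.25 to 16.10 in control livers, and the groups overlapped.

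Among the sulfotransferases, Sult1b1, which acts on thyroid hormones and small phenols, had the smallest p with cit-AgNP. Its signals were 8.51, 7.83, 7.95 and 7.85 in cit-AgNP livers, against 7.43, 7.99, 7.10 and 7.48 in control livers. The lowest cit-AgNP liver lay above 3 of the 4 control livers, and the difference was 0.54 (SE 0.21, adjusted p 0.641). In PVP-AgNP livers Sult1b1 stood at 7.01, 7.77, 7.36 and 7.06, all below every cit-AgNP liver, and PVP-AgNP minus cit-AgNP was -0.74 with a 95% interval of -1.20 to -0.27 (SE 0.21, adjusted p 0.258). It was the only member of 26 whose groups did not overlap in that direction, against 4.84% of all genes. Most Sult1b1 signals lay below the level of the intron controls, so the size of this difference is uncertain.

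Sult3a1, an amine sulfotransferase of mouse liver, and its neighbour Sult3a2 had the largest positive differences with both coatings, and neither passed. Sult3a1 had signals of 15.39, 14.81, 5.37 and 3.60 in cit-AgNP livers and 12.07, 16.39, 6.14 and 3.92 in PVP-AgNP livers, against 10.34, 12.39, 3.87 and 3.97 in control livers. Both cit-AgNP females lay above both control females, 1 PVP-AgNP female lay above and the other between them, and all males were below the level of the intron controls. The difference was 2.15 with cit-AgNP (SE 1.00, adjusted p 0.779) and 1.98 with PVP-AgNP (SE 1.00, adjusted p 0.287), each against the same control livers. Sult3a2 followed with 11.55, 11.52, 5.08 and 4.84 in cit-AgNP livers and 8.47, 13.55, 5.04 and 4.82 in PVP-AgNP livers, against 7.72, 9.56, 4.45 and 4.31 in control livers. Its difference was 1.74 with cit-AgNP (SE 0.92, adjusted p 0.848) and 1.46 with PVP-AgNP (SE 0.92, adjusted p 0.379).

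Sult2a7 had signals of 7.01, 6.36, 4.64 and 4.88 in cit-AgNP livers and 6.75, 6.37, 4.47 and 5.04 in PVP-AgNP livers, against 5.05, 6.27, 4.67 and 4.60 in control livers. Females of both coatings lay above both control females and the males overlapped, with differences of 0.58 for cit-AgNP (SE 0.29, adjusted p 0.829) and 0.51 for PVP-AgNP (SE 0.29, adjusted p 0.331). All Sult2a7 signals lay below the level of the intron controls. Sult1d1, a sulfotransferase of catecholamines and related phenols, had signals of 14.87, 13.80, 14.03 and 13.55 in PVP-AgNP livers, against 15.14, 15.81, 13.73 and 13.96 in cit-AgNP livers. Both PVP-AgNP females were below both cit-AgNP females, the males overlapped, and the difference was -0.60 with a 95% interval of -1.36 to 0.17 (SE 0.35, adjusted p 0.451).

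The effect of cit-AgNP in females minus its effect in males did not pass for any member or for any gene (0%), and 1 member had an unadjusted p under 0.05 (2.45% of all genes). That member was Sult5a1, with 6.39, 6.48, 5.45 and 5.76 in cit-AgNP livers and 5.65, 5.29, 5.84 and 5.59 in control livers. Its cit-AgNP females lay above its control females and the males overlapped, and the contrast was 1.07 (SE 0.46, adjusted p 1). All Sult5a1 signals lay below the level of the intron controls, so the size of this contrast is uncertain. The next members by p had contrasts of 0.90 for Sult2a7 (SE 0.55), 3.17 for Sult3a1 (SE 1.94) and 0.90 for Ugt2b35 (SE 0.66), each at an adjusted p of 1. Ugt2b35 had signals of 13.37, 13.70, 14.14 and 13.98 in cit-AgNP livers, against 13.04, 13.56, 15.11 and 14.35 in control livers, where the females overlapped and the cit-AgNP males lay below the control males. With PVP-AgNP, Sult2a6 had signals of 5.23, 5.19, 4.70 and 4.87, against 5.40, 6.06, 4.35 and 4.21 in control livers. Its females lay below and its males above their controls, all under the level of the intron controls, for a contrast of -1.03 (SE 0.33, adjusted p 1).

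More members passed between the sexes than with either coating. Of the 26 members, 12 passed between females and males, where 435 of 19985 genes did (2.18%). Of these, 9 sulfotransferases were higher in females (0.931% of all genes) and 3 glucuronosyltransferases were lower in females (1.25% of all genes). Without any overlap between the sexes were 16 of 26 members, against 2.28% of all genes. All 16 tested sulfotransferases had a difference above 0 (42.7% of all genes), with a median of 1.49, and the 10 glucuronosyltransferases had a median of -0.67, beside -0.02 over all genes tested. The number that passed ran from 9 to 13 when single arrays were left out, and Sult1a1, Ugt2b5 and Sult2a4 were the members that dropped below the threshold, with the lowest number of 9 without cit-AgNP replicate 1 or replicate 3.

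**Figure D3:**
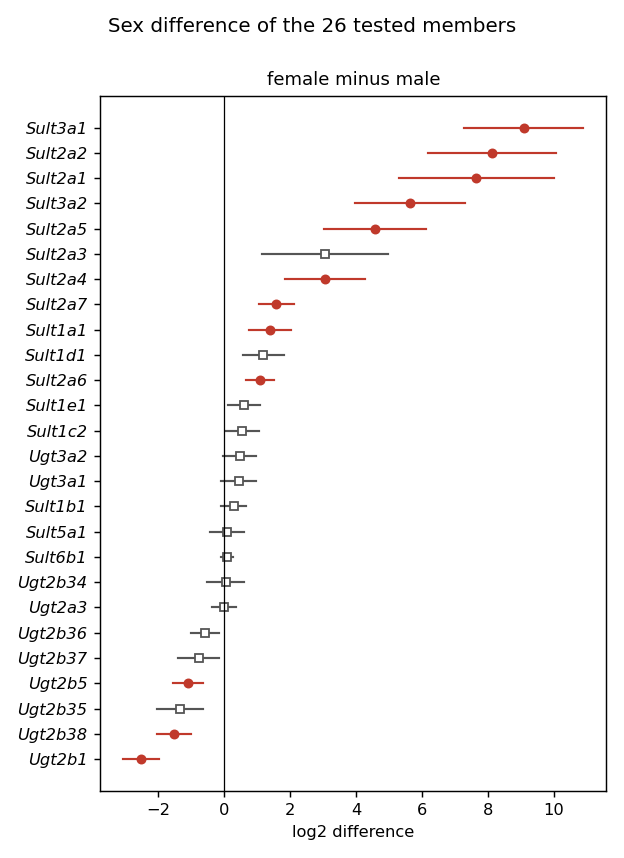
Log2 differences between 6 female and 6 male livers with 95% confidence intervals from the limma fit (horizontal axis) for the 26 tested members, sorted by size (rows). Filled circles mark the 12 members that passed and open squares the 14 others, and sulfotransferases fill the upper rows while Ugt2b genes fill the lowest.

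Sult3a1 and Sult3a2 rose in females. Sult3a1 ranged from 10.34 to 16.39 in females (median 13.60), against 3.60 to 6.14 in males (median 3.95), a difference of 9.09 (SE 0.82, adjusted p 0.000252). Since no male array exceeded the level of the intron controls, this is at least 39.0-fold more signal in females, counting each male array at its own intron control level. Sult3a2 ranged from 7.72 to 13.55 in females (median 10.54), against 4.31 to 5.08 in males (median 4.83), a difference of 5.64 (SE 0.75, adjusted p 0.00333), at least 4.33-fold by the same bound. The sexes did not overlap for either gene.

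The Sult2a enzymes, which conjugate hydroxysteroids such as dehydroepiandrosterone and bile acids, were higher in females in all 7 genes, of which 6 passed. Sult2a1 ranged from 8.44 to 15.71 in females (median 12.52), against 3.70 to 5.47 in males (median 4.13), a difference of 7.65 (SE 1.06, adjusted p 0.00405). Sult2a2 ranged from 10.40 to 16.02 in females (median 13.38), against 4.10 to 6.06 in males (median 4.65), a difference of 8.12 (SE 0.88, adjusted p 0.000938). With males at their intron control level, these are at least 13.1-fold for Sult2a1 and at least 25.7-fold for Sult2a2, and neither gene had overlapping sexes. Sult2a5 was at 7.41 to 12.56 in females (median 8.88), against 4.40 to 4.96 in males (median 4.66), a signal difference of 4.57 (SE 0.69, adjusted p 0.00753) that is at least 1.94-fold by the same bound. Sult2a4 was at 6.70 to 10.79 in females (median 7.85), against 4.64 to 5.29 in males (median 5.07), a signal difference of 3.06 (SE 0.55, adjusted p 0.0186). Since its female mean lay under the intron control level of the male arrays, no fold can be given for Sult2a4.

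Sult2a7 and Sult2a6 rose in females at signals that stayed below the intron controls on all arrays, so no fold can be given for them. The difference of Sult2a7 was 1.59 (SE 0.24, adjusted p 0.00697), with 5.05 to 7.01 in females (median 6.36), against 4.47 to 5.04 in males (median 4.65). That of Sult2a6 was 1.09 (SE 0.19, adjusted p 0.0161), with 5.19 to 6.19 in females (median 5.53), against 4.21 to 4.87 in males (median 4.53). Sult2a3 did not overlap between the sexes either, at 5.66 to 11.90 in females and 4.14 to 4.55 in males, but its difference of 3.07 did not pass (SE 0.86, adjusted p 0.109). Without control replicate 4, whose signal of 11.90 stood far above the other females, the difference of Sult2a3 was 2.11 with an adjusted p of 0.00212.

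The promoter windows of 4 of these genes are shown because their sex differences were the largest in size among members with a sequence at hand. That of Sult2a3 did not pass. The windows differ in which letters they hold. Searched on both strands, the STAT5 motif TTCNNNGAA stood in the window of 1 member, Sult3a1, and in 8.3% of all 32851 windows. The HNF1 motif GTTAAT stood in 9 of 26 member windows, from 9 of 24 member genes, and in 7.1% of all windows. Among these genes were all 4 Sult2a genes with a window and Sult3a2. The 4 Sult2a windows were identical to each other at 53.5% to 75.9% of aligned columns, so their matches are not independent and the counts are no test of enrichment. The other members with it were Ugt2a3, Ugt3a1, Sult1d1 and Sult1a1, of which only Sult1a1 passed between the sexes. The Sult1a1 window, like that of Sult3a2, lies inside its gene. RefSeq places Sult3a1 at chr10:33851020-33879475 and Sult3a2 at chr10:33766424-33786704, so both Sult3a windows lie inside their genes. They do not describe the sequence at the outer starts of these genes. Sult3a1 (chr10:33857472-33857771, plus strand, GRCm38.p6) has the STAT5 match in capitals, beginning at position -109 from the start used for its window.
Sult3a1: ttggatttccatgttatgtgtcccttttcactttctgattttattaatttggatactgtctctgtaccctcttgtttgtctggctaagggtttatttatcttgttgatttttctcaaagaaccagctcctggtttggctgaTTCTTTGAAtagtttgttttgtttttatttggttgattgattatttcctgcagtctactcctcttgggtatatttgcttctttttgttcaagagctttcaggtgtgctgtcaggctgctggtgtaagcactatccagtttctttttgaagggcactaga
Sult3a2 (chr10:33782066-33782365, minus strand), Sult2a5 (chr7:13623717-13624016, plus strand) and Sult2a3 (chr7:14122999-14123298, minus strand) have the HNF1 motif in capitals, read as GTTAAT or, on the other strand, ATTAAC.
Sult3a2: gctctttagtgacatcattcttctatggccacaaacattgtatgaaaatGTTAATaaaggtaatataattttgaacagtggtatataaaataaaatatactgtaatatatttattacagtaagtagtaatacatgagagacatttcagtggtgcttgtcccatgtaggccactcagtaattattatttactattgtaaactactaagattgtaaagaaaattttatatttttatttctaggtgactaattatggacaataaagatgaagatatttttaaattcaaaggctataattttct
Sult2a5: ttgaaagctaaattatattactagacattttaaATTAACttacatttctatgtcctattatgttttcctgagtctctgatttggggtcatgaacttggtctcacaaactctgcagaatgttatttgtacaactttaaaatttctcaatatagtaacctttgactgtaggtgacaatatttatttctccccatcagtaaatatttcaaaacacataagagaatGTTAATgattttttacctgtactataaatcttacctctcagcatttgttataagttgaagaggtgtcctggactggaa
Sult2a3: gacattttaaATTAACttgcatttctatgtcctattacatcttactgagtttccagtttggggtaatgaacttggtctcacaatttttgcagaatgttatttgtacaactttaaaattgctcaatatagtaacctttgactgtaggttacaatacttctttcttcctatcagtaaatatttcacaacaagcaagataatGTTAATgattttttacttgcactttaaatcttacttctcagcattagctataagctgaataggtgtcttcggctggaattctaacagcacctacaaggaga
The windows of Sult2a5 and Sult2a3 were identical at 75.9% of aligned columns. Those of Sult3a1 and Sult3a2, both inside their genes, were identical at 49.3%. The antioxidant response element TGACNNNGC stood in no member's window and in 12.39% of all windows, the AHR core GCGTG in those of 3 members and 32.39% of all, and the HNF4 core AAAGTCC in those of 3 members and 4.21% of all. Such matches describe these windows and show no binding, and the 5 motifs can overlap each other. In gene order, the 7 Sult2a members stand among 8 consecutive protein-coding genes on chromosome 7, of which the other is Sult2a8.

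**Figure D4:**
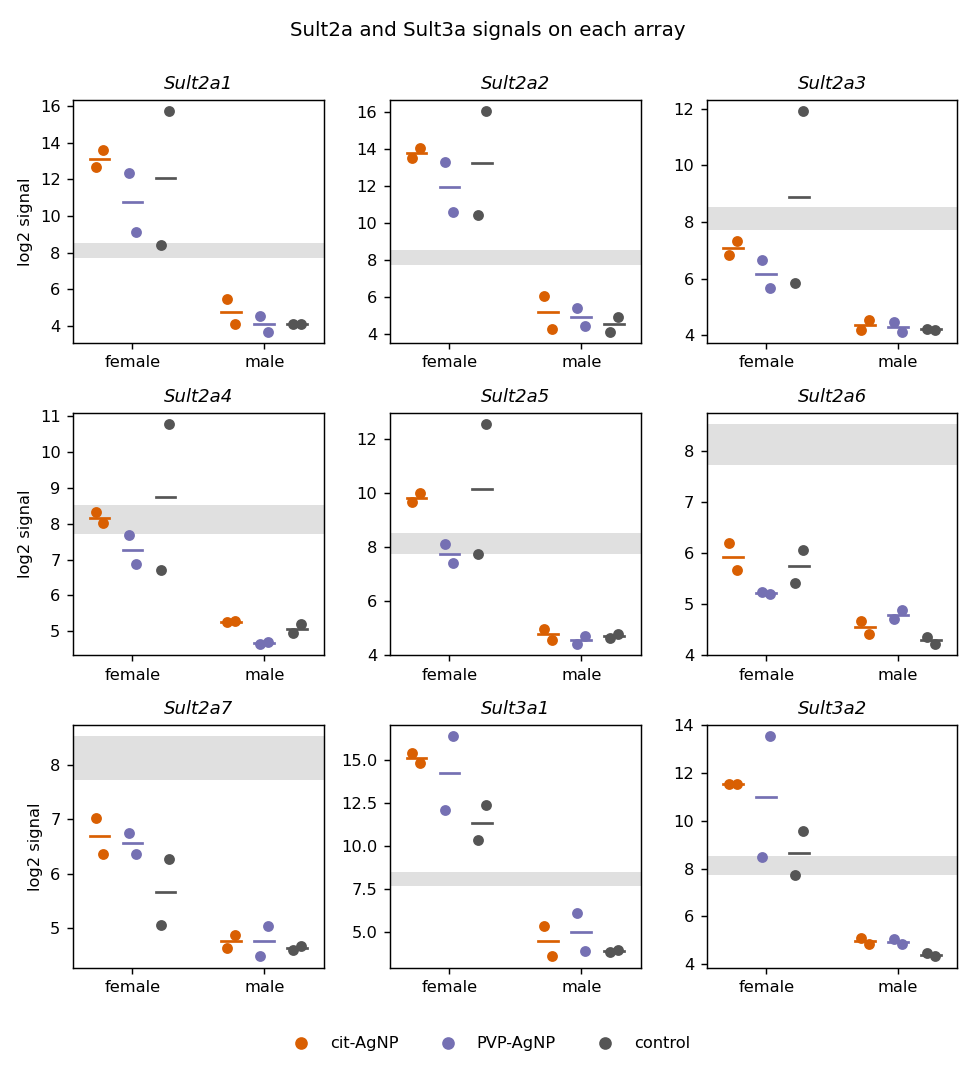
Log2 signals (vertical axis, on a scale of its own in each panel) of the 7 Sult2a and 2 Sult3a genes on each of the 12 arrays, by sex and group, where each point is 1 mouse, each line the mean of 2 mice and the grey band the range of the intron control level over the arrays. All male points lie below the band in the 9 panels. The females spread widest for Sult2a1, over 7.27, and least for Sult2a6, over 1.00.

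The females differed widely among themselves. Over the 6 females the signals spanned 7.27 for Sult2a1, 6.24 for Sult2a3, 6.05 for Sult3a1, 5.83 for Sult3a2 and 5.62 for Sult2a2, against 1.77, 0.41, 2.54, 0.77 and 1.95 over the 6 males. Sult2a1 stood at 12.68 and 13.59 in cit-AgNP females and 12.36 and 9.15 in PVP-AgNP females, against 8.44 and 15.71 in control females. The control females thus held both the lowest and the highest signal of Sult2a1. Control replicate 4 was the highest female in 5 of 7 Sult2a genes. Control replicate 2 and PVP-AgNP replicate 2 were each among the 2 lowest in 6 of 7. The Sult3a pair ran in another order, the same for both genes, with PVP-AgNP replicate 2 highest, followed by cit-AgNP replicates 1 and 2, control replicate 4, PVP-AgNP replicate 1 and control replicate 2.

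Some other sex-dependent genes also differed between the control females, and others hardly did. In control replicates 2 and 4, Cyp2b9 stood at 18.56 and 18.79, Cyp4a12a at 6.63 and 6.56 and Cyp2d9 at 12.65 and 12.41. Further apart were Elovl3, at 4.59 and 6.18, and Mup20, at 19.68 and 18.25. A1bg, a female-predominant liver gene, stood at 11.29 and 13.01 in cit-AgNP females and 14.32 and 14.68 in PVP-AgNP females, against 15.75 and 8.89 in control females. Control replicate 4, with the highest Sult2a signals of 5 genes, thus had the lowest A1bg of the females. Slco1a1, a male-predominant uptake carrier, stood at 12.07 and 11.93 in cit-AgNP females and 7.37 and 12.04 in PVP-AgNP females, against 11.78 and 6.99 in control females. The part of these genes in the spread of the sulfotransferases was not tested.

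Ugt2b1, Ugt2b38 and Ugt2b5 fell in females. Ugt2b1 ranged from 14.20 to 16.19 in females (median 15.29), against 17.16 to 18.26 in males (median 17.88), a difference of -2.51 (SE 0.25, adjusted p 0.000457). This is a female signal of 0.175 times the male one, with no overlap between the sexes. Ugt2b38 ranged from 11.24 to 12.61 in females (median 11.96), against 13.10 to 14.09 in males (median 13.37), a difference of -1.52 (SE 0.23, adjusted p 0.0071). Ugt2b5 ranged from 16.50 to 17.45 in females (median 17.06), against 17.74 to 18.88 in males (median 17.96), a difference of -1.08 (SE 0.21, adjusted p 0.0244). Neither of these overlapped between the sexes, and Ugt2b5 dropped below the threshold in 9 of 24 alternatives.

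The other Ugt2b genes did not pass. Ugt2b35, Ugt2b36 and Ugt2b37 had differences of -1.33 (adjusted p 0.059), -0.58 (adjusted p 0.179) and -0.77 (adjusted p 0.227), and in all 3 every female lay below every male. Ugt2b34 and Ugt2a3 overlapped between the sexes, with differences of 0.04 (95% interval -0.52 to 0.61) and -0.01 (95% interval -0.38 to 0.35). Ugt3a1 and Ugt3a2 had differences of 0.44 (adjusted p 0.433) and 0.47 (adjusted p 0.36).

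Of the Sult1 genes, Sult1a1 passed. This phenol sulfotransferase ranged from 14.57 to 15.75 in females (median 15.45), against 12.85 to 14.43 in males (median 14.20), with no overlap and a difference of 1.40 (SE 0.29, adjusted p 0.034). It dropped below the threshold in 11 of 24 alternatives. Sult1d1 had a difference of 1.19 (SE 0.28, adjusted p 0.0621), with 13.80 to 15.81 in females, against 13.22 to 14.03 in males. Sult1e1, the oestrogen sulfotransferase, ranged from 4.05 to 5.37 in females, against 3.87 to 4.20 in males, below the level of the intron controls on every array, and did not pass (0.60, SE 0.22, adjusted p 0.232). Sult1c2, Sult1b1, Sult5a1 and Sult6b1 had differences of 0.55, 0.29, 0.10 and 0.09, and none passed.

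Some genes that supply the donors of both reactions differed by sex. Of 13 tested genes of a list of cofactor supply, 3 passed between females and males (2.18% of all genes), 1 higher and 2 lower in females. Ugdh, which makes UDP-glucuronic acid, ranged from 9.56 to 10.52 in females, against 11.36 to 12.06 in males, and fell by 1.32 in females (SE 0.18, adjusted p 0.00405). Slc35d1, which carries UDP-glucuronic acid into the endoplasmic reticulum, ranged from 10.96 to 11.53 in females, against 11.73 to 12.48 in males, and fell by 0.74 (SE 0.14, adjusted p 0.0259). Papss2, which makes PAPS, ranged from 14.54 to 17.03 in females, against 13.79 to 14.72 in males, and rose by 1.60 (SE 0.29, adjusted p 0.02). Papss1, which makes PAPS as well, had a difference of -0.19 (SE 0.11, adjusted p 0.451), and the median difference of the list was -0.12. Papss2 overlapped between the sexes in 1 female, and its highest signal was in control replicate 4, the female of the highest Sult2a1.

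**Figure D5:**
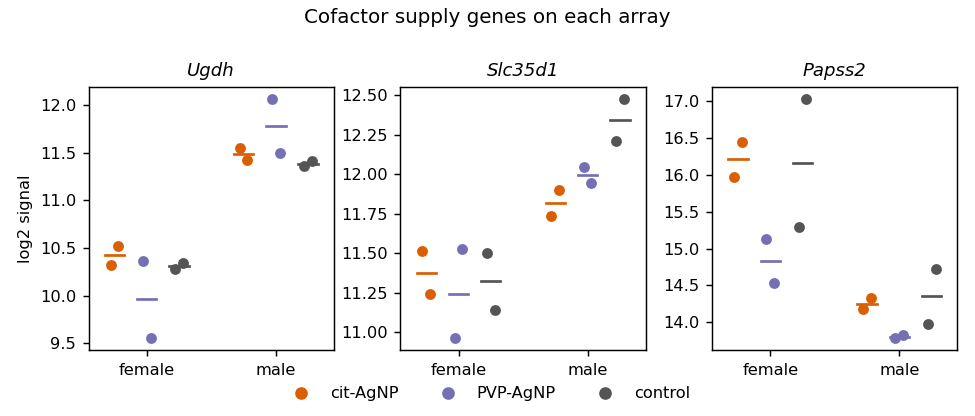
Log2 signals (vertical axis, on a scale of its own in each panel) of Ugdh, Slc35d1 and Papss2 on each of the 12 arrays, by sex and group, where each point is 1 mouse and each line the mean of 2 mice. Ugdh and Slc35d1 are lower in every female than in every male, and Papss2 is higher in 5 of the 6 females than in all males.

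With the coatings, 0 of 13 cofactor genes passed in each of the 3 comparisons. With PVP-AgNP against control, 6 of 13 had an unadjusted p under 0.05, all lower (12.2% of all genes were lower at that level), and the median difference was -0.21. Suox, which oxidises sulfite to sulfate, had signals of 12.49, 11.75, 12.40 and 11.62 in PVP-AgNP livers and 12.86, 13.14, 12.76 and 12.71 in cit-AgNP livers, against 13.40, 12.86, 13.23 and 13.20 in control livers. Every PVP-AgNP liver lay below every other liver, with a difference from control of -1.11 (SE 0.21, adjusted p 0.0718) and from cit-AgNP of -0.80 (SE 0.21, adjusted p 0.247), and cit-AgNP minus control was -0.31 (SE 0.21, adjusted p 0.927). Ugp2, which makes UDP-glucose, had signals of 11.34, 11.23, 12.67 and 11.86 in PVP-AgNP livers, against 12.43, 13.68, 13.09 and 12.58 in control livers, a difference of -1.17 (SE 0.36, adjusted p 0.152), with 1 PVP-AgNP male among the controls. Slc26a1, a sulfate carrier, stood at 9.86, 10.23, 9.94 and 10.24 in PVP-AgNP livers, against 10.80, 10.71, 10.39 and 10.80 in cit-AgNP livers, all lower, for a difference of -0.60 (SE 0.16, adjusted p 0.247). Cdo1, which oxidises cysteine towards sulfite and sulfate, had the smallest p of the list with cit-AgNP, at -0.21 (SE 0.11, adjusted p 0.863). Its signals of 19.16 to 19.81 lay close to the upper limit of the scale, so the size of this difference is uncertain.

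Among genes that remove or transport conjugates, 4 of 13 tested passed between the sexes (2.18% of all genes) and 0 of 13 with the coatings. Slco1a4, an uptake carrier of organic anions, rose by 2.21 in females (SE 0.39, adjusted p 0.0173). Slco1a1 fell by 5.02 (SE 0.95, adjusted p 0.0243), the lysosomal sulfatase Arsa by 1.54 (SE 0.10, adjusted p 2.06e-05) and the efflux pump Abcg2 by 1.31 (SE 0.25, adjusted p 0.0265). With PVP-AgNP against control, Slco2b1 had a difference of -0.49 (adjusted p 0.128) and the bile salt export pump Abcb11 one of -0.88 (adjusted p 0.128). Between the coatings these were -0.36 (adjusted p 0.325) and -0.62 (adjusted p 0.329). With cit-AgNP against control, the conjugate exporter Abcc3 had a difference of -0.60 (adjusted p 0.754) and the glucuronidase Gusb one of 0.13 (adjusted p 0.904).

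Of 19 tested regulators of these families, 2 passed between the sexes (2.18% of all genes), both higher in females, namely Cux2 by 1.16 (SE 0.19, adjusted p 0.013) and the oestrogen receptor Esr1 by 1.61 (SE 0.28, adjusted p 0.0155). None of the 19 passed with the coatings. Nfe2l2, a transcription factor of the response to oxidative stress, had differences of -0.73 with cit-AgNP (adjusted p 0.399) and -0.62 with PVP-AgNP (adjusted p 0.158), and Foxa1 had -0.71 (adjusted p 0.829) and -1.20 (adjusted p 0.147) in the same order. PVP-AgNP minus cit-AgNP was -3.33 for Onecut1 (SE 0.80, adjusted p 0.245) and 1.50 for Bcl6 (SE 0.56, adjusted p 0.324). Onecut1 stood at 9.17, 10.11, 10.04 and 8.37 in PVP-AgNP livers, against 13.35, 11.48, 13.41 and 12.77 in cit-AgNP livers, with no overlap, while control livers spread from 8.72 to 13.18.

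Of 9 tested readout genes of the xenobiotic sensors, 5 passed between the sexes (2.18% of all genes). Another of the 9, Cyp3a11, stood at the upper limit of the scale, 19.93, on all 12 arrays, so it could not pass in any comparison. Cyp2b10 rose by 3.87 in females (adjusted p 0.00323), Cyp4a14 by 3.18 (adjusted p 0.0494) and Nqo1 by 1.07 (adjusted p 0.00501), while Cyp2c55 fell by 1.37 (adjusted p 0.00318) and Gstm3 by 1.15 (adjusted p 0.0277). None of the 9 passed with the coatings, the smallest adjusted p being that of Gstm3 with PVP-AgNP against control (-1.58, SE 0.27, adjusted p 0.0629), followed by Cyp2c55 (-0.89, adjusted p 0.116). Between the coatings these had -1.38 (adjusted p 0.212) and -0.80 (adjusted p 0.256). With cit-AgNP against control Nqo1 had -0.52 (adjusted p 0.59) and Gclc -0.70 (adjusted p 0.848).

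None of 4 genes of heme and bilirubin breakdown, whose product bilirubin is a known glucuronidation substrate, passed in any comparison. The heme oxygenase Hmox1 stood at 7.63, 8.27, 6.66 and 7.37 in PVP-AgNP livers, against 6.92, 6.90, 6.30 and 7.10 in control livers, a difference of 0.68 (SE 0.26, adjusted p 0.205). Of 17 tested transferases outside the rule, 1 passed between the sexes (2.18% of all genes), Tpmt, which fell by 0.75 in females (adjusted p 0.0381), and 0 with the coatings. The smallest p among them with PVP-AgNP were those of Gstm1 (-0.69, adjusted p 0.138) and Ndst2 (-0.31, adjusted p 0.144), and with cit-AgNP those of Ndst2 (-0.25, adjusted p 0.58) and Nat1 (-0.28, adjusted p 0.843).

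The platform table lists 3 further genes under older names that the rule does not take. Sult2a8, a bile acid sulfotransferase of mouse liver, lay above the intron controls on all 12 arrays and did not pass between the sexes (-1.04, SE 0.43, adjusted p 0.286). Its signals were 15.06 and 17.08 in PVP-AgNP females and 17.58 and 17.50 in cit-AgNP females, against 15.75 and 17.41 in control females. The Sult2a pseudogene Sult2a-ps2 rose in females by 3.54 (SE 0.63, adjusted p 0.0175), with its highest signal, 10.74, in control replicate 4, and Sult6b2 had a difference of -0.05 (adjusted p 0.857). None of the 3 passed with either coating.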

How the data were processed

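Liver RNA of 12 mice was measured on Affymetrix whole-transcript arrays, grouped by treatment and sex from the labels. The table deposited by the authors holds log2 signals of 72688 probe sets between 1.73 and 19.93, with no centring per gene; the submitters' processing notes name RMA and Transcriptome Analysis Console 4.0.1.36 without their roles. Which genome build and annotation the signals rest on is not given in the sources used here. The replicates are separate mice by the labels.

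The platform table names exactly 1 gene for 30604 probe sets, several for 2146 and none for the rest, and 1135 symbols were updated from a RefSeq table (GRCm38.p6). The probe set of highest mean stood for its gene, and Sult6b1 alone of the members had more than 1. One probe set that names Ugt2a1 and Ugt2a2 was left out. Genes were tested if their mean exceeded the 40th percentile over the probe sets (3.93). Both sex means of all 26 tested members lay above it.

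Tests used limma 3.58.1 (R 4.3.3; lmFit, eBayes with a mean-variance trend). One fit had terms for group and sex, and another had 6 means of group by sex. P-values were two-sided and adjusted by Benjamini and Hochberg over 19985 genes. The code was tested on simulated data. Every member that passed, or was among the 4 of smallest p in a comparison (8 for sex), is given array by array or by its range, with its fold change. Of the other gene lists, those that passed and the 2 of smallest p per list and coating comparison were eligible to be named. Readouts of sex are given as a count, apart from those whose control females are shown. The intron control level is the 95th percentile of 5222 intron control probe sets. The members, lists and tests were chosen with earlier results of these data known. Alternatives covered the filter, scaling, variance model, array quality, design, probe sets and left-out arrays. The replicate numbers of the labels were not taken to pair mice, since numbers 1 and 4 mark different sexes in control and coated groups (2 and 3 mark 1 sex) and same-numbered mice did not all deviate together.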

Additional observations from a re-analysis of the deposited data

Results flagged for a closer look

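Of 130 groups of 4 or 6 arrays looked at for the 26 tested members, 7 held a single array far from the others by Dixon's criterion, and chance gives about 1 in 20. In the PVP-AgNP group Ugt2a3 stood at 16.59 in replicate 3, a male, while the other 3 livers lay between 15.69 and 15.80. Sult1e1 stood at 5.11 in PVP-AgNP replicate 1, a female, with the other 3 between 3.87 and 4.05.

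Among the 6 females, Ugt2b37 stood at 8.87 in PVP-AgNP replicate 1, with the others between 9.69 and 10.16, and Sult6b1 stood at 4.54 on the same array, with the others between 4.17 and 4.30. Sult2a3 stood at 11.90 in control replicate 4, with the other females between 5.66 and 7.34. Among the 6 males, Sult5a1 stood at 6.63 in PVP-AgNP replicate 3, with the others between 5.45 and 5.84. In the control group Ugt2b37 stood at 10.71 in replicate 1, a male, with the others between 10.10 and 10.19. PVP-AgNP replicate 1 accounts for 3 of the 7, and it is the array of lowest exon over intron area, 0.778; the part of array quality was not tested.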

How the results depend on the processing

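No member passed with either coating, or between the coatings, in any alternative run. For female against male the number of members that passed was 12, ran from 9 to 13 with single arrays left out, and was 4 with the replicate number of the labels as a block. Same-numbered mice share sex between control and coated groups for numbers 2 and 3 but not for 1 and 4. Their deviations correlated between -0.515 and 0.526 about the group means and between -0.44 and 0.234 with sex also in the fit, so not every pair deviated together. For the PVP-AgNP effect in females minus that in males, 0 members passed, and the range with single arrays left out was 0 to 2. The 2, Sult2a3 (-5.83) and Sult2a5 (-4.65, both at an adjusted p of 0.0404), passed only without control replicate 2, which leaves control replicate 4 as the only control female. For the effect of cit-AgNP in females minus that in males, and for the 3 comparisons of groups, 0 members passed with any array left out.

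For the 32 member values that the naming rule gives, 762 of 792 alternative values kept their direction and side of the threshold, 30 kept the direction but dropped below the threshold and 0 reversed. All 30 belong to female against male: 11 to Sult1a1, 9 to Ugt2b5, 4 to Sult2a4, and 1 each to Sult3a1 (adjusted p 0.053), Ugt2b1, Sult3a2, Sult2a7, Ugt2b38 and Sult2a6 under the replicate block. Without the 2 arrays of lowest area Sult2a4 (0.0722), Ugt2b5 (0.0554) and Sult1a1 (0.0676) did not pass. Sult2a3 passed without control replicate 4 or 2 and with array weights. Scaling moved the median of all genes by at most -0.06. Signals below the intron controls limit the size of every Sult2a difference in males.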
